A study of Danio rerio with 2 samples.

Results

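The glutathione S-transferase genes of zebrafish were compared between a pool of adult livers and a pool of whole embryos by RNA sequencing. The members were the gene features whose name in the files, or whose current RefSeq symbol, begins with gsta, gstp, gstm, gstr, gstt, gstk, gsto or mgst, with zgc:101897 (gsto2) added and gstz1 left out. This gave 21 of 27098 gene features. Names in the files placed 10 of them, gstr, gstk1 and gsto1 were placed through their current symbols as zgc:162356, zgc:92763 and zgc:92254, and 8 more were found by current symbol alone. The liver pool combined RNA from livers dissected from adult fish, and the embryo pool combined RNA from samples of 15 whole embryos each. All fish of both pools had been exposed for 48 h to human hepatotoxicants, 9 in all: valproic acid, tetracycline, paraquat, chlorpromazine, thioacetamide, amiodarone, 17a-ethynylestradiol, acetaminophen and cyclosporine A. The labels give no strain, adult sex, embryo age or dose. Each pool mixed equal amounts of RNA from all its samples and was sequenced as 1 library, so a value cannot be assigned to any of the 9 compounds, and the pools could not be tested against each other. Liver RNA and embryo RNA stand for the liver pool and the embryo pool in what follows. The total count over all genes was 13020149 for the liver pool, against 11408727 for the embryo pool. Intervals in brackets are exact 95% intervals that cover counting error only, not differences between fish. In pooled tissue, fewer cells of a type and less RNA per cell cannot be told apart.

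Glutathione S-transferases join the tripeptide glutathione to reactive electrophiles, which makes them more soluble and ready for export. Acetaminophen is the standard example, since its reactive quinone imine is removed as a glutathione conjugate. The cytosolic enzymes are dimers that are sorted by sequence into classes, here alpha, mu, pi, theta, omega and the rho class of fish. The kappa enzymes belong to mitochondria and peroxisomes, and the microsomal enzymes are unrelated membrane proteins of a family that also takes part in leukotriene synthesis. In human liver the alpha class is abundant in adult hepatocytes, whereas the pi class is low there and high before birth. In zebrafish, gstp1.2 (gstp1 in the files) is a known target of the stress-response factor Nrf2.

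As a whole the family was more abundant in liver RNA, and its make-up differed between the pools. Members summed to 42486 counts or 3263 CPM (counts scaled to a common library total) in liver RNA and 19014 counts or 1667 CPM in embryo RNA, a liver over embryo ratio of 1.96 (1.92 to 1.99). With library totals, theta and rho genes made up most of this excess. Without these 4 genes the ratio of the sums was 1.18 (1.15 to 1.201). That remainder joined alpha, mu and omega sums higher in embryo RNA with pi, kappa and microsomal sums higher in liver RNA. Of the 21 members, 20 had at least 10 counts in either pool and were taken as measured. The exception was gstk2 (LOC100151093 in the files), with 0 counts in both pools. A call required that the whole interval of the ratio lay at or beyond 4-fold. By this rule 3 members were higher in liver RNA (15%, against 3.35% of the 21750 measured genes), 5 were higher in embryo RNA (25%, against 30.9% of measured genes) and 12 were called in neither direction. On the log2 scale the liver over embryo ratio had a median of 0.65 among the measured members and -1.60 among all measured genes, and 14 of the 20 members lay above the median of all measured genes.

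Scaling sets where a ratio of 1 lies. Trimmed-mean (TMM) scaling shifted every log2 ratio toward liver RNA by 1.35. With it, 8 members were higher in liver RNA, against 8.06% of measured genes, and 2 in embryo RNA, against 15.8% of measured genes. The 8 were gstt1a, gstt1b, gstt2, gstr, gstp1.2, gstk1, mgst1.2 and mgst3b. Higher in embryo RNA were gsto2 and gstp1.1. One measured member, gstk4, moved to the other side of a ratio of 1, and its interval held 1 with library totals.

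**Figure D1:**
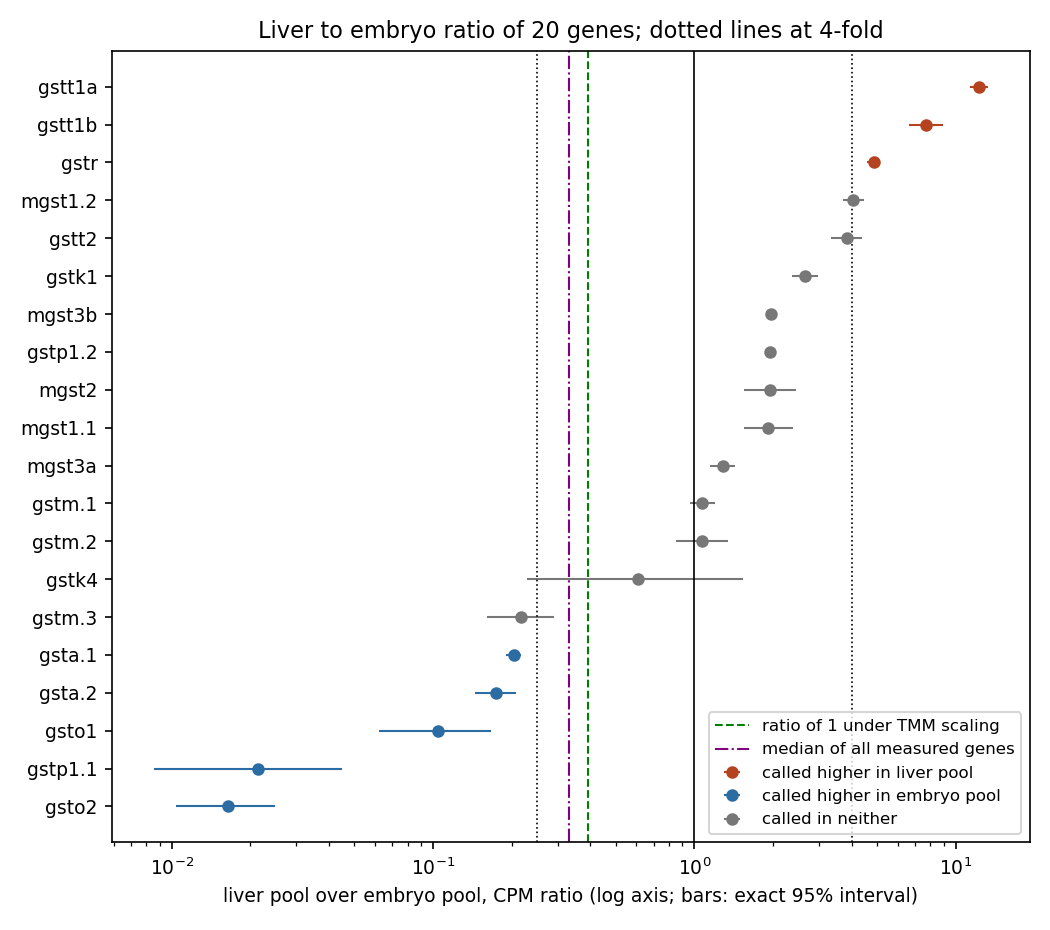
Liver pool over embryo pool CPM ratio (log axis) of the 20 measured members, sorted, with exact 95% intervals as bars. gstt1a lies highest at 12.3 and gsto2 lowest at 0.0165; the dash-dotted line marks the median of all measured genes at 0.330 and the dashed line the ratio that TMM scaling sets to 1.

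Levels per length were compared with the authors' RPKM (reads scaled by exon length and library total). In liver RNA the highest members were gstp1.2 at 703 RPKM (688 to 718) and gstt1a at 694 RPKM (679.7 to 708), whose intervals overlapped. They were followed by gstr at 469.5 RPKM, mgst3b (zgc:158387 in the files) at 432 RPKM and gstt1b at 218 RPKM. No other member exceeded 96.4 RPKM in liver RNA. In embryo RNA gsta.1 (gstal in the files) was highest at 420.1 RPKM, followed by gstp1.2 at 374 RPKM, mgst3b at 219 RPKM, gsto2 at 109.7 RPKM and gstr at 96.5 RPKM. The first place of gsta.1 rests on counting reads with several positions. Of the family's unique reads in embryo RNA, not scaled by length, it held 10.2%, against 23.9% for gstp1.2 and 17.7% for mgst3b. By RPKM among all 27098 features, gstp1.2 ranked 171 in liver RNA and 238 in embryo RNA, and gstt1a 173 in liver RNA and 1146 in embryo RNA. The rank of gsta.1 was 642 in liver RNA and 213 in embryo RNA, and that of gsto2 9873 in liver RNA and 593 in embryo RNA. The 4 highest members of liver RNA held 75.9% of the family's summed RPKM there and 45.4% in embryo RNA. The 4 highest of embryo RNA held 40.3% in liver RNA and 68.3% in embryo RNA. Each set was picked by its levels in 1 pool, a choice that by itself favours a larger share there. Lower down, the intervals of neighbours in the order often overlapped, which alone does not show that 2 levels were alike. In liver RNA this held for mgst1.2, mgst3a, gsta.1 and gstk1 in turn between 96.4 and 84.1 RPKM, and for mgst2 and mgst1.1 at 21.1 RPKM each. In embryo RNA the same held in turn from mgst3a at 68.7 RPKM through gsta.2 and gstt1a to gstm.1 at 50.3 RPKM, and from gstp1.1 at 33.5 RPKM through gstk1, gstt1b and mgst1.2 to gstm.3 at 20.4 RPKM.

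**Figure D2:**
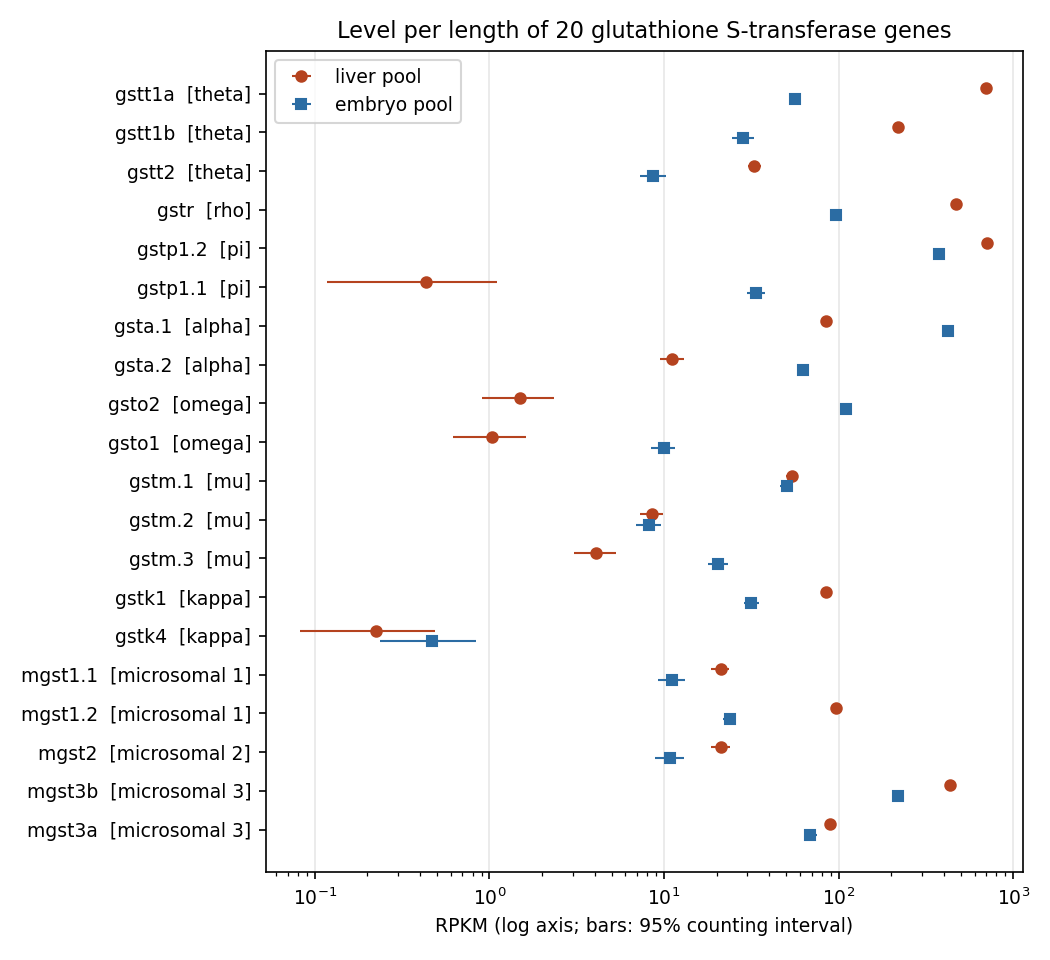
Level per exon length in RPKM (log axis) of the 20 measured members in the liver pool (circles) and the embryo pool (squares), 1 library each, with 95% counting intervals. gstp1.2 lies farthest to the right in the liver pool, followed by gstt1a, gstr, mgst3b and gstt1b, while gstp1.1 and both omega genes drop to 1.5 RPKM or less there.

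Of 3 theta genes, 2 were called higher in liver RNA, as was the rho gene, beside 3.35% of all measured genes. Theta enzymes act in mammals on small halogenated compounds and reactive sulfates. gstt1a had 9509 counts (730.3 CPM) in liver RNA and 678 counts (59.4 CPM) in embryo RNA, and all of its reads had 1 position. Its ratio of 12.3 (11.4 to 13.3) exceeded that of 98.0% of measured genes and lay 5.22 log2 units above their median. A second theta gene, gstt1b, had 1823 counts in liver RNA and 208 in embryo RNA, a ratio of 7.68 (6.65 to 8.91). The third, gstt2 (zgc:66350 in the files), had 1179 counts in liver RNA and 270 in embryo RNA, and its ratio of 3.83 (3.35 to 4.38) was not called. Its feature overlaps chek2, and exon reads were 50.6% of its reads in liver RNA and 50.7% in embryo RNA; with exon reads the ratio was 3.63 (3.01 to 4.40). The rho gene gstr, of a class described in fish, had 7913 counts in liver RNA and 1426 in embryo RNA, all with 1 position, and a ratio of 4.86 (4.60 to 5.15). Together the theta genes held 31.2% of the family's RPKM in liver RNA and 5.65% in embryo RNA. The share of gstr was 15.5% in liver RNA and 5.87% in embryo RNA.

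The pi genes, neighbours separated by 3.755 kb in the files' coordinates, had ratios on opposite sides of 1, and of the pair only gstp1.1 was called. By RPKM gstp1.2 was highest in liver RNA, with an interval that overlapped that of gstt1a, and the next after gsta.1 in embryo RNA. It had 8676 counts in liver RNA and 3909 in embryo RNA, and its ratio of 1.94 (1.87 to 2.02) was not called with library totals. By total reads its share of the family was nearly the same, 20.4% (20.04 to 20.8) in liver RNA and 20.6% (19.99 to 21.1) in embryo RNA. By unique reads the share of gstp1.2 was 19.5% in liver RNA, where gstt1a held 23.3%, and 23.9% in embryo RNA. gstp1.1 (gstp2 in the files) had 7 counts in liver RNA and 286 in embryo RNA and was 46.6-fold higher (22.3 to 117) in embryo RNA. With exon reads, of which it had 4 in liver RNA and 273 in embryo RNA, this was 82.0-fold (31.7 to 303). By total reads, 8.25% of measured genes had a liver over embryo ratio below that of gstp1.1. Of its 7 liver reads, 6 had 1 position. Thus 1239 reads of gstp1.2 were counted for each read of gstp1.1 in liver RNA and 13.7 in embryo RNA.

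Alpha genes held 3.17% of the family's RPKM in liver RNA and 29.4% in embryo RNA, where theirs was the largest share of any class. By unique reads their share was 1.196% in liver RNA and 12.7% in embryo RNA, below pi at 25.6% and microsomal 3 at 21.3% in embryo RNA. Unlike RPKM, these shares are not scaled by length, and they leave out reads with several positions. In embryo RNA 35.1% of the alpha reads were unique, against 91.2% for pi and 98.5% for microsomal 3. gsta.1 had 1084 counts (83.3 CPM) in liver RNA and 4661 counts (408.5 CPM) in embryo RNA, and was 4.91-fold higher (4.59 to 5.25) in embryo RNA. gsta.2 (zgc:173961 in the files) had 151 counts in liver RNA and 759 in embryo RNA and was 5.74-fold higher (4.81 to 6.88) in embryo RNA. These ratios lay toward the middle of all measured genes: 36.9% of measured genes had a ratio below that of gsta.1 and 33.3% one below that of gsta.2. Under TMM scaling neither was called, with liver over embryo ratios of 0.520 and 0.445. Much of the alpha signal came from reads that fitted several positions, and the feature of gsta.1 overlaps that of zgc:163080. Only 38.7% of the gsta.1 reads in liver RNA and 32.6% in embryo RNA had 1 position, and for gsta.2 these shares were 44.4% in liver RNA and 50.5% in embryo RNA. With unique reads alone, gsta.1 had 420 in liver RNA and 1518 in embryo RNA, was 3.88-fold higher (3.48 to 4.34) in embryo RNA and was no longer called. The unique reads of gsta.2 gave 6.14-fold (4.73 to 8.09), a call.

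Both omega genes were called higher in embryo RNA, as were 30.9% of all measured genes. Omega enzymes reduce dehydroascorbate and mixed disulfides rather than conjugating electrophiles. gsto2 had 23 counts (1.77 CPM) in liver RNA and 1224 counts (107 CPM) in embryo RNA, and was 60.7-fold higher (40.3 to 96.2) in embryo RNA. Of its reads, 23 of 23 in liver RNA and 1219 of 1224 in embryo RNA had 1 position. gsto1, which lies 7.899 kb from gsto2 in the files' coordinates, had 20 counts in liver RNA and 168 in embryo RNA. It was 9.59-fold higher (6.01 to 16.1) in embryo RNA, a call lost under TMM scaling. The omega class as a whole held 0.0836% of the family's RPKM in liver RNA and 7.28% in embryo RNA. The log2 ratio minus the median of all measured genes was -4.33 for gsto2 and -1.66 for gsto1. Of measured genes, 6.58% had a liver over embryo ratio below that of gsto2 and 24.5% one below that of gsto1.

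Mu genes form a tandem row in the files' coordinates, with gaps of 1.14 kb between gstm.1 (gstm in the files) and gstm.2 (zgc:173994 in the files) and 0.368 kb between gstm.2 and gstm.3 (gstm3 in the files). Mu enzymes are known in mammals for conjugating epoxides and quinones. gstm.1 had 730 counts in liver RNA and 597 in embryo RNA, a ratio of 1.07 (0.960 to 1.196). gstm.2 had 176 counts in liver RNA and 144 in embryo RNA, also a ratio of 1.07 (0.854 to 1.34). Both intervals held 1 with library totals. With unique reads the ratio of gstm.1 was 1.14 (1.016 to 1.279). Under TMM scaling it was 2.73 (2.45 to 3.05) for gstm.1 and 2.73 (2.18 to 3.43) for gstm.2, and neither was called. gstm.3 had 59 counts in liver RNA and 237 in embryo RNA and a 4.58-fold higher level (3.43 to 6.21) in embryo RNA, which was not called.

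Of the kappa genes, which encode mitochondrial and peroxisomal enzymes, gstk1 carried nearly all reads. It had 1279 counts in liver RNA and 423 in embryo RNA, a ratio of 2.65 (2.37 to 2.96) that was called higher in liver RNA under TMM scaling and not with library totals. gstk4 (zgc:136861 in the files), 0.926 kb away in the files' coordinates, had 9 counts in liver RNA and 13 in embryo RNA. None of its 6 liver exon reads and 3 of its 11 embryo exon reads crossed an exon junction. At this depth its ratio of 0.607 (0.229 to 1.53) gave no direction.

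All microsomal genes had ratios above 1 with library totals, and none was called. Human MGST1 is a detoxifying enzyme of the endoplasmic reticulum and the outer mitochondrial membrane, and human MGST2 can make leukotriene C4. mgst3b was the most abundant, with 6006 counts in liver RNA and 2676 in embryo RNA and a ratio of 1.97 (1.88 to 2.06). Its partner mgst3a (zgc:56518 in the files) had 811 counts in liver RNA and 553 in embryo RNA, a ratio of 1.29 (1.15 to 1.43). mgst1.2 (zgc:92357 in the files) had 2491 counts in liver RNA and 537 in embryo RNA, and its ratio of 4.06 (3.70 to 4.47) straddled the 4-fold threshold. Its neighbour mgst1.1 (mgst1 in the files) had 287 counts in liver RNA and 131 in embryo RNA, a ratio of 1.92 (1.56 to 2.38). mgst2 had 253 counts in liver RNA and 114 in embryo RNA, a ratio of 1.94 (1.55 to 2.45). The microsomal 3 genes had nearly the same share of the family's RPKM, 17.2% in liver RNA and 17.5% in embryo RNA. Their share by unique reads was 16.6% in liver RNA and 21.3% in embryo RNA.

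**Figure D3:**
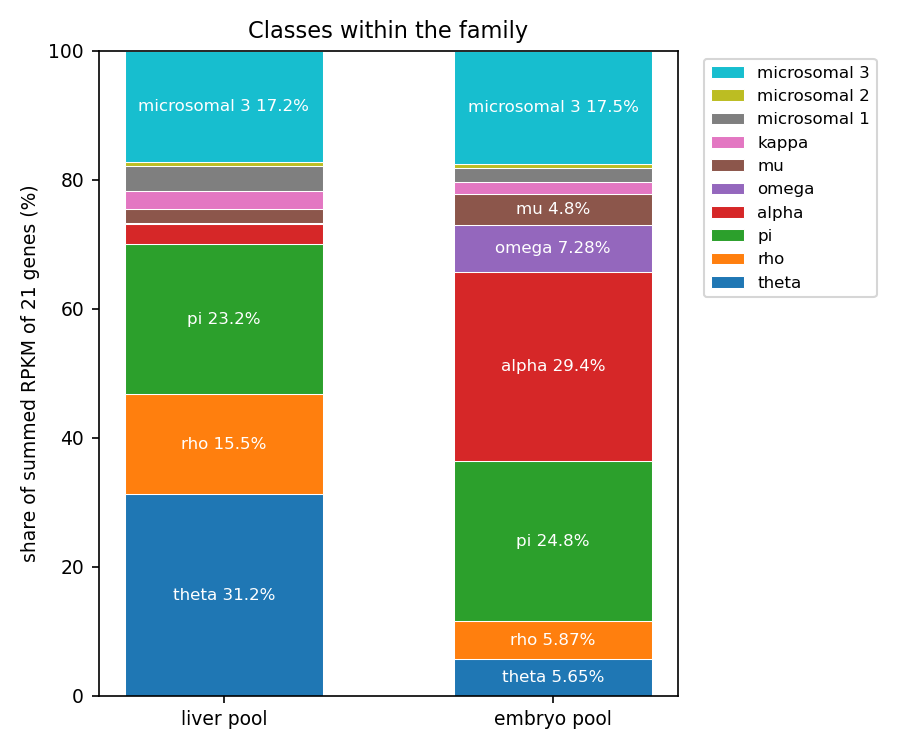
Share of the family's summed RPKM held by each class in the liver pool (left bar) and the embryo pool (right bar), 1 library each; shares above 4% are written in the bars. Theta and rho fill 31.2% and 15.5% of the liver bar, alpha and omega 29.4% and 7.28% of the embryo bar, while pi and microsomal 3 differ little.

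The balance within a class does not depend on how the libraries were scaled to each other. Odds ratios were computed for the 12 pairs of measured genes within a class; no share over other gene pairs was computed, so each is given as a value. The largest difference was that of the pi pair, gstp1.2 over gstp1.1, at 90.7 (43.4 to 228) in liver over embryo. In the omega pair gsto2 had 1.15 reads for each read of gsto1 in liver RNA and 7.29 in embryo RNA, an odds ratio of 0.158 (0.0811 to 0.311). In the mu row, the balance of gstm.1 and gstm.2 did not differ beyond counting error, with 4.15 reads of gstm.1 for each of gstm.2 in both pools and an odds ratio of 1.0005 (0.776 to 1.29). gstm.3 differed from both, at 4.91 (3.60 to 6.78) for gstm.1 over gstm.3. Of the theta genes, gstt1a outweighed gstt1b by more in liver RNA, 5.22 reads for each, than in embryo RNA, 3.26 reads for each, an odds ratio of 1.60 (1.35 to 1.89). The odds ratio was 0.472 (0.375 to 0.598) for mgst1.1 over mgst1.2 and 1.53 (1.36 to 1.72) for mgst3b over mgst3a. For gsta.1 over gsta.2 it was 1.17 (0.968 to 1.42) with total reads and 1.58 (1.19 to 2.13) with unique reads, the pair whose reading depended on the reads counted. These intervals compare 2 libraries, and with no replicate library the differences have no check beyond counting.

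**Figure D4:**
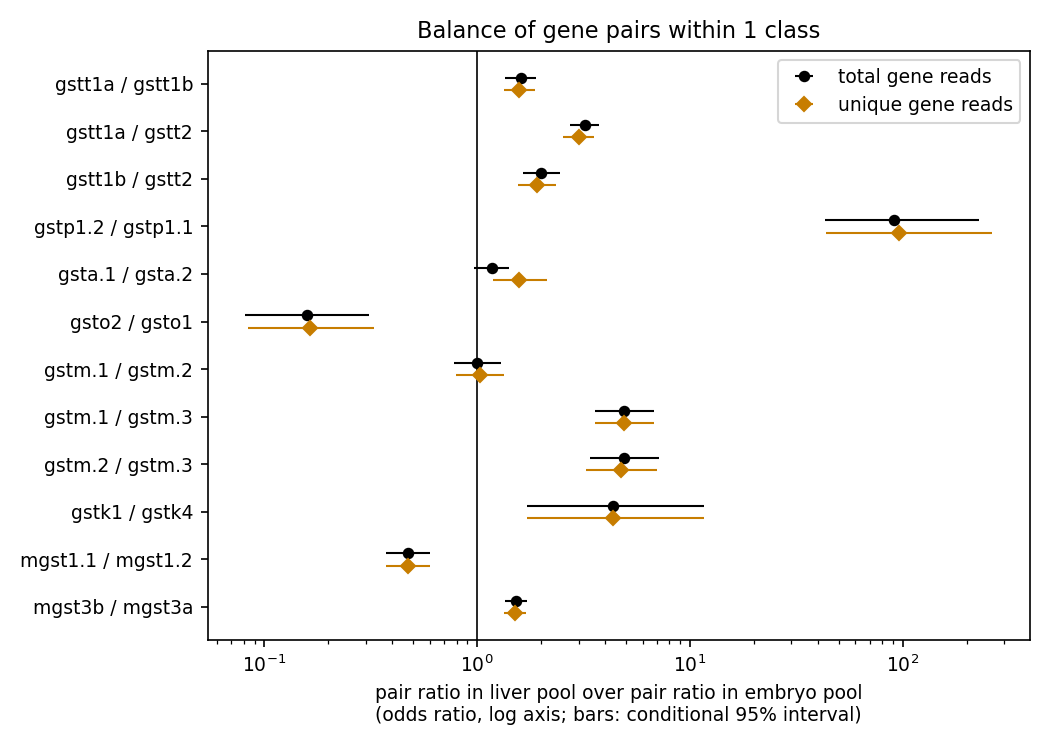
Odds ratio of each pair of measured genes within a class, the pair's read ratio in the liver pool over that in the embryo pool (log axis), with conditional 95% intervals, from total gene reads (circles) and unique gene reads (diamonds). The pi pair lies at 90.7 and the omega pair at 0.158, and the pair of gstm.1 and gstm.2 lies close to 1.

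Apart from the alpha genes most members were well told apart from their paralogs. Unique reads exceeded 90% in both pools for 16 of the 20 measured members, and the other 4 were gstt2, gstp1.1, gsta.1 and gsta.2. Over the family, unique reads were 95.9% of the liver counts and 78.6% of the embryo counts. Without the alpha genes the family's ratio was 2.66 (2.61 to 2.71). Reads across an intron-exon boundary, which can come from unspliced or otherwise spliced RNA, were 0.466% of all reads in liver RNA and 0.460% in embryo RNA. Their source was not tested. mgst2 had 27 such reads of 253 in liver RNA, or 10.7% (7.15 to 15.1), and 1 of 114 in embryo RNA, or 0.877% (0.0222 to 4.79). gstp1.2 had 47 in liver RNA, or 0.542% (0.398 to 0.720), and 3 in embryo RNA, or 0.0767% (0.0158 to 0.224). In gstt2 the share was 4.24% (3.16 to 5.55) in liver RNA and 2.22% (0.820 to 4.77) in embryo RNA.

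**Figure D5:**
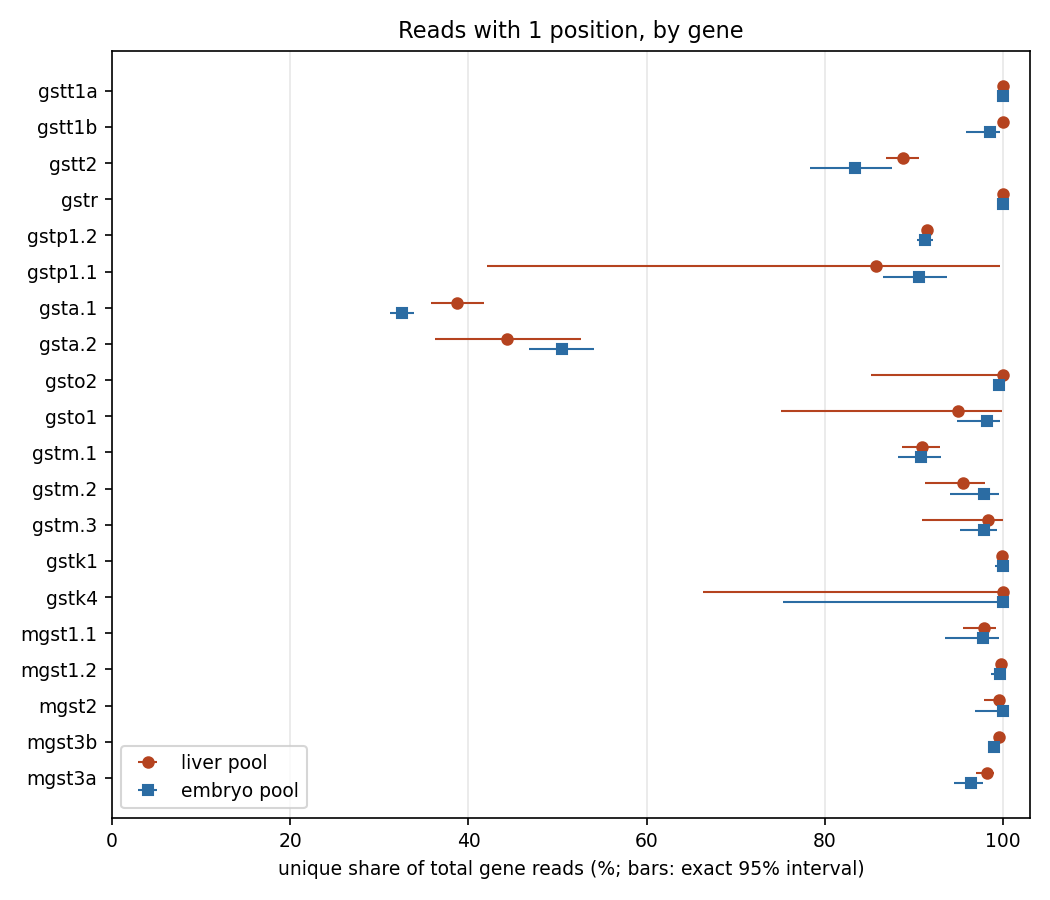
Share of total gene reads with 1 position (percent) for the 20 measured members in the liver pool (circles) and the embryo pool (squares), with exact 95% intervals. gsta.1 lies at 38.7% for liver and 32.6% for embryos, and gsta.2 at 44.4% for liver and 50.5% for embryos, apart from the other members.

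The genes of glutathione synthesis and reduction lay close to all measured genes in their counts of calls and in their median. Of 16 measured genes, 1 was higher in liver RNA and 4 in embryo RNA, beside 3.35% and 30.9% of all measured genes. Their median log2 ratio was -1.44, beside -1.60 over all measured genes. The liver gene was cbsa, whose enzyme feeds homocysteine sulfur toward cysteine, with 6006 counts in liver RNA and 534 in embryo RNA and a ratio of 9.86 (9.02 to 10.8). The 4 embryo genes were slc3a2a, slc3a2b, ggctb and cthl, led by the amino acid carrier subunit gene slc3a2b (zgc:55813 in the files), 33.1-fold higher (25.6 to 43.6). The catalytic subunit of the rate-limiting synthesis enzyme is encoded by gclc, which had 101 CPM in liver RNA and 78.1 CPM in embryo RNA, a ratio of 1.29 (1.19 to 1.41).

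For the steps after conjugation, calls in both directions lay near the shares of all measured genes, 3.35% toward liver RNA and 30.9% toward embryo RNA. Among 15 measured genes listed for glutathione breakdown and mercapturic acid formation, 0 were higher in liver RNA and 5 in embryo RNA. Their median was -1.57. The 5 were anpepb.1 (anpep in the files), 13.4-fold higher (11.9 to 15.2), anpepa, nat8l (whose enzyme makes N-acetylaspartate, not a mercapturic acid), ggt1b and ggt1a. The last had 0 counts in liver RNA and 24 in embryo RNA and was at least 9.13-fold higher in embryo RNA with the liver count set to a floor of 3, while the exact interval, which also covers counting error in embryo RNA, began at 6.87-fold. The most abundant of the list in liver RNA was chac1, which cleaves glutathione, with 289 CPM in liver RNA and 286 CPM in embryo RNA, a ratio of 1.01 (0.964 to 1.06). The 8 measured transporter genes listed for export of glutathione conjugates, a role not tested here, had a median of -2.04. Of these, 0 were higher in liver RNA and 3 in embryo RNA. These were abcc1, 7.23-fold higher (4.68 to 11.6), abcc5 (si:ch1073-183g13.2 in the files), 5.77-fold higher (5.42 to 6.16), and abcg2b, with 0 counts in liver RNA and 62 in embryo RNA, of which 29.0% were unique. At the same floor abcg2b was at least 23.6-fold higher in embryo RNA, and its exact interval began at 18.6-fold. Under TMM scaling abcc1 and abcc5 were no longer called. The exporter of the bile canaliculus, abcc2, had 2990 counts in liver RNA and 869 in embryo RNA and a ratio of 3.01 (2.79 to 3.26), with 21.2% of its liver reads unique, and was called higher in liver RNA under TMM scaling at a ratio of 7.70.

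With library totals, most genes listed as other glutathione-using enzymes (15 of 17) were called in neither direction. So were most genes of the Nrf2 group (20 of 23), beside 65.7% of all measured genes. The list of 17 also held alox5ap and faah2a, which do not encode glutathione-using enzymes. Its median log2 ratio was -0.50, beside -1.60 over all measured genes. Of the 17, 1 was higher in liver RNA and 1 in embryo RNA, beside 3.35% and 30.9% of all measured genes. The first was gstz1 (zgc:92869 in the files), the zeta enzyme of tyrosine breakdown, with 1521 counts in liver RNA and 266 in embryo RNA and a ratio of 5.01 (4.40 to 5.73). The second was alox5ap, with 0 counts in liver RNA and 23 in embryo RNA, at least 8.75-fold higher in embryo RNA at the same floor, with an exact interval that began at 6.56-fold. The most abundant in liver RNA were adh5, which clears S-hydroxymethylglutathione, at 242 CPM in liver RNA and 140.4 CPM in embryo RNA, and the glyoxalase gene hagh at 133 CPM in liver RNA and 62.8 CPM in embryo RNA. The 23 measured Nrf2 regulators and targets had a median of 0.03, beside the same -1.60. Of the 23, 1 was higher in liver RNA and 2 in embryo RNA, beside the same shares of all measured genes. me1, whose enzyme makes NADPH, was 17.6-fold higher (14.9 to 20.97) in liver RNA, with 44.9% of its liver reads unique. The embryo genes were the ferritin gene fth1b and the small Maf gene mafgb. The most abundant of the group, the ferritin gene fth1a, had 3664 counts in liver RNA and 7509 in embryo RNA. It was 2.34-fold higher (2.25 to 2.43) in embryo RNA and not called. tktb had 2275 counts in liver RNA and 2504 in embryo RNA, a ratio of 0.796 (0.752 to 0.843). nqo1, a less abundant standard Nrf2 target named after its values were seen, had 1117 counts in liver RNA and 693 in embryo RNA, a ratio of 1.41 (1.28 to 1.56). Of the 99 measured genes in these 5 groups and the GST-domain relatives, 3 were higher in liver RNA and 20 in embryo RNA with library totals, beside 3.35% and 30.9% of all measured genes. Under TMM scaling 12 were higher in liver RNA and 10 in embryo RNA, beside 8.06% and 15.8% of all measured genes. With that scaling the list of glutathione-using enzymes and the Nrf2 group each had 4 genes higher in liver RNA and 0 in embryo RNA. The embryo calls of alox5ap, fth1b and mafgb were thus lost.

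The labelled sources matched their defining markers. All 11 hepatocyte markers were higher in liver RNA, at 95042 CPM in sum against 3328 CPM in embryo RNA. All 14 markers of embryo tissues (muscle, skin, lens, nerve and others) were higher in embryo RNA, at 68.8 CPM in sum in liver RNA and 46145 CPM in embryo RNA, and elavl3, shha, cryba2b and hoxa9a had 0 liver counts. Markers of other tissues were present in liver RNA, in sum 1559 CPM for exocrine pancreas (4985 CPM in embryo RNA), 907 CPM for intestine (1705 CPM in embryo RNA), 206 CPM for erythrocytes (897 CPM in embryo RNA), 11.8 CPM for ovary (4.82 CPM in embryo RNA) and 225 CPM for leukocytes (98.3 CPM in embryo RNA). For biliary and stellate cells the sum was 1969 CPM in liver RNA and 1599 CPM in embryo RNA. A few genes carried some of these sums. Without apoa4b.1 the other 5 intestine markers, all called higher in embryo RNA, summed to 125 CPM in liver RNA and 1187 CPM in embryo RNA. Without cd74a and cd74b the other 7 leukocyte markers summed to 48.6 CPM in liver RNA and 94.2 CPM in embryo RNA. Without krt8 and krt18a.1 the other 5 biliary and stellate markers summed to 80.8 CPM in liver RNA and 431.5 CPM in embryo RNA. Without hbba1 (ba1 in the files) and hbaa1 the other 9 erythrocyte markers summed to 19.8 CPM in liver RNA and 897 CPM in embryo RNA. Without krt4 the other 13 embryo tissue markers summed to 4.92 CPM in liver RNA and 38890 CPM in embryo RNA. Of the erythrocyte markers, 5 had 0 liver counts, among them the embryonic globin genes hbae1, hbae3, hbbe1 and hbbe2, and 4 had 0 embryo counts, among them the adult globin genes hbaa1 and ba1. Of the ovary markers, buc, figla, bmp15, gdf9 and zp3 had 0 embryo counts and gdf9 also 0 liver counts. The part of these other cells in the values of the glutathione S-transferase genes was not tested.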

How the data were processed

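RNA was sequenced from 1 liver pool and 1 embryo pool. Per the file headers, the authors deposited whole-number read counts for each gene (unique, with 1 position, and total), split into exon, exon-exon and intron-exon reads, and RPKM, which equalled total exon reads over exon length and the sum of total gene reads. Not given in the sources used here were the aligner, annotation, build, strand setting and the treatment of reads with several positions. The deposited median coverage, a signal value per the file headers, was not used.

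Total gene reads were scaled by library totals to CPM. Ratios carry exact conditional intervals (Clopper-Pearson), shares exact binomial ones, RPKM exact Poisson ones on exon reads, and pair ratios conditional odds ratio intervals (Python 3.11.15, scipy 1.17.1). A call needed the interval at or beyond 4-fold and at least 10 counts in the higher pool. TMM factors came from edgeR 4.0.16. The floor for a count of 0 was 3 counts. With 1 library per group, no p-value was computed. The interval and call functions were tested on simulated data. Features were matched to the RefSeq names of assembly GRCz12tu (19349 of 27098). Members, lists and rules were chosen with earlier results of these data known. Named were all members and, per list, called genes (all where 6 or fewer went 1 way) and up to 3 of the most abundant. Outside this rule, gclc and nqo1 were named with values, and faah2a, gdap2 and aimp1a only for what they encode. List names with no matching feature were 3 of 19 for synthesis and reduction, 8 of 25 for breakdown and 6 of 14 for export. They were 7 of 24 for other glutathione-using enzymes, 8 of 34 for the Nrf2 group and 0 of 22 for GST-domain relatives. No sequence of the members was used here. The genes nearest to gstp1.1 in level are not reported here.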

Additional observations from a re-analysis of the deposited data

How the results depend on the processing

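The ratio of the family's sums was 1.96 with library totals, 4.998 with TMM factors, 5.10 with median-of-ratios size factors, 2.36 without the 10 most abundant genes of each pool in the totals, 2.53 with unique reads and 1.85 with exon reads, always higher in liver RNA. Members called higher in liver RNA were 3 with library totals, 8 with TMM factors, 10 with size factors, 5 without the most abundant genes and 6 at a 2-fold threshold; those higher in embryo RNA were 5, 2, 2, 3 and 6. Of all measured genes, 3.35%, 8.06%, 8.19%, 4.06% and 6.46% were called toward liver RNA in these settings and 30.9%, 15.8%, 15.5%, 26.8% and 52.4% toward embryo RNA. The pathway lists together gave 12 and 10 calls under TMM factors and likewise 12 and 10 with size factors, against 3 and 20. The share of gstt1a in the family reads of liver RNA was 22.4%, or 23.3% with unique reads and 22.9% of RPKM; that of gsta.1 in embryo RNA was 24.5%, or 10.2% with unique reads and 25.6% of RPKM, since 32.6% of its reads there had 1 position. gstt1a, gstt1b, gstr, gsto2 and gstp1.1 kept their calls in every setting tried. A minimum of 50 counts or none left both counts of members as they were, with 3.84% or 2.89% of all genes called toward liver RNA and 33.9% or 26.7% toward embryo RNA. A set of 13 members, found by the names in the files and the listed names only and chosen after seeing the data, gave 3 and 4 calls and a ratio of 1.97. No paired analysis was possible because each pool was 1 library, and for the same reason no library could be left out. Values of gstk4, gstp1.1, gsto1 and gsto2 in liver RNA rest on 9, 7, 20 and 23 counts.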

Other observations

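Genes listed as sharing the fold or a domain of the glutathione S-transferases without belonging to the enzyme family were examined as a further group. The list also held gdap2 and aimp1a, whose proteins lack such a domain. Of its 20 measured genes, 0 were higher in liver RNA and 5 in embryo RNA, beside 3.35% and 30.9% of all measured genes. Their median log2 ratio was -0.66, beside -1.60 over all measured genes. The most abundant was eef1g, a translation elongation factor subunit with a transferase-like domain, at 1187 CPM in liver RNA and 1245 CPM in embryo RNA, a ratio of 0.954 (0.932 to 0.976) that became 2.43 under TMM scaling. The 5 were the chloride channel family genes clic3 (clica in the files), clic4 and clic5a (zgc:101827 in the files), and gdap1 and gdap1l1, whose human counterpart GDAP1 is a mitochondrial protein of nerve. gdap1 had 4 counts in liver RNA and 158 in embryo RNA, 45.1-fold higher (17.3 to 167) in embryo RNA. clic4 had 142 counts in liver RNA and 927 in embryo RNA, but only 9.15% of its liver reads had 1 position.

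The named genes nearest to a member in log2(CPM + 1) over the 2 libraries were tat, ppdpfa and oxct1b for gstt1a, at distances of 0.18 to 0.27, and ehhadh, as3mt and slco2a1 for gstt1b, at 0.16 to 0.28. For gstr they were uo:ion005, pdia3 and zfp36l1l, at 0.31 to 0.37. For gsto2 they were mapk8ip3, sox4b and cacna2d4, at 0.04 to 0.15, and for gsto1 h2afz, loxl3b and thrab, at 0.04 to 0.06. For gsta.1 they were tuba8l4, txnip and ywhabl, at 0.07 to 0.24, and for gsta.2 dlg5, fuca1 and hsf2, at 0.05 to 0.08. Such likeness rests on 2 values per gene.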
